A study of Homo sapiens with 18 samples.

Results

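Collagen chain genes, the rows of the expression table whose symbol is COL, a type number, A and a chain number, comprised 44 of the 26475 genes measured by RNA-seq in 2 human uveal melanoma (UM) cell lines, Mel92.1 and MP41. Each line was kept for 48 h with DMSO, the vehicle, or with UNC0642 or A366 at 1 μM, which gave 6 groups of 3 libraries and 18 libraries in all. UNC0642 and A366 are small molecules that inhibit EHMT2 (G9a), an enzyme that methylates lysine 9 of histone H3. They can inhibit EHMT1 (GLP) too. Both lines were grown as tumor cell cultures in RPMI with serum. The labels give the same share of serum for both lines and the study's methods a higher share for MP41, so that serum and line cannot be told apart where the lines are compared. The study describes 3 biological replicates per group, and nothing further ties a replicate to a separate culture, so p-values measure the spread between these libraries.

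Collagens are triple helices of 3 chains, and a type is often built from chains of several genes, so that the chains a cell expresses limit which trimers it can assemble. Fibrillar collagens (I, II, III, V, XI, XXIV and XXVII) form or organize fibrils. Collagen IV forms the network of basement membranes, collagen VI forms beaded microfibrils, and the FACIT group, such as collagen IX, sits on fibril surfaces. Collagens II, IX and XI are the classic set of cartilage and of the vitreous of the eye.

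The libraries held between 23601156 and 62941462 counts, with a median of 41955693. The 4 libraries labelled A366 replicates 2 and 3 of either line carried the expression of the other line: they held at least 95.2% of the level of the genes particular to the other line (20 genes for Mel92.1 and 21 for MP41) and at most 0.0348% of the level of those of the line on their label. They were therefore placed in the other line, as the study's own listing of replicate values does. Some results without them are given for A366 in MP41 and for the interaction with A366, but none for A366 in Mel92.1. Ribosomal RNA from 4 genes took between 3.31% and 32.8% of counts, with the highest share in Mel92.1 UNC0642 replicate 1 and 19.5% in the next library. Of 8 melanocyte markers, 7 in Mel92.1 and all 8 in MP41 were at 1 CPM or more with DMSO. Endothelial markers summed to at most 4.41 CPM in any library. Of 8 fibroblast and mural markers, 4 in Mel92.1 (summed level 284 to 346 CPM over its libraries) and 5 in MP41 (76.6 to 91.7 CPM) reached 1 CPM, namely LUM, FBLN1, ACTA2 and RGS5 in both lines and PDGFRA in MP41. With DMSO, FBLN1 was at means of 293 and 46.8 CPM and LUM at 31.4 and 17.6 CPM in Mel92.1 and MP41, while DCN was at 0.0293 and 0.125 CPM. Of 4 immune cell markers, CD68 alone reached 1 CPM in either line, and the list summed to 25.9 to 35.9 CPM in Mel92.1 and 133 to 183 CPM in MP41. Of 4 epithelial markers, KRT18 alone reached 1 CPM in Mel92.1 (summed level 7.70 to 11.2 CPM) and none did in MP41 (0.0805 to 3.16 CPM). CPM are counts relative to a library's total, rescaled with TMM factors, which correct for differences in RNA composition.

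The sequences at 3 loci whose genes differed between the lines are shown first, since their levels recur throughout. COL4A1 and COL4A2 lie head to head on chromosome 13 in RefSeq, where all 126 bases between their start sites are upstream of both genes. They are followed by the 250 bases upstream of the RefSeq starts of COL11A1 and of COL9A1. In the gene spans of GENCODE, the COL4A1-COL4A2 stretch instead lies within COL4A2 and partly within COL4A1. The COL11A1 stretch lies within the span of COL11A1 there. Coordinates are GRCh38.p14, each sequence reads 5′ to 3′ on the strand given, and capitals mark a GC box (GGGCGG) or a CCAAT box (CCAAT) on either strand.
COL4A1-COL4A2, chr13:110307158-110307283, plus strand: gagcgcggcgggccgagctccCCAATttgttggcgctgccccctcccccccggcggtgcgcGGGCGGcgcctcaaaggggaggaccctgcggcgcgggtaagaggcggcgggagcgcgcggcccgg
COL11A1, chr1:103108523-103108772, minus strand: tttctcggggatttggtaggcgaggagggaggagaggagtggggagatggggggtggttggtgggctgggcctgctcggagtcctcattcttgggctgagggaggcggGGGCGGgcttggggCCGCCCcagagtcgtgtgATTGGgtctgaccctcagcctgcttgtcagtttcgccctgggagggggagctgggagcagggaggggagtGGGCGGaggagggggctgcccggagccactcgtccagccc
COL9A1, chr6:70303085-70303334, minus strand: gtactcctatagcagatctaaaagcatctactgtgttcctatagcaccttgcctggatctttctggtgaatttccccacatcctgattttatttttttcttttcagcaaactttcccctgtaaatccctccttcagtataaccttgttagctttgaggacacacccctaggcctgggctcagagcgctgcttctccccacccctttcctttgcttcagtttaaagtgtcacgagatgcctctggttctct
The COL4A1-COL4A2 stretch held 1 GC box and 1 CCAAT box, and the COL11A1 sequence held 3 GC boxes and 1 CCAAT box. The COL9A1 sequence held none of the 5 motifs searched on both strands, which also included a TATA box (TATAAA), a SOX core (AACAAT) and an E-box of the type in melanocyte promoters (CATGTG). RefSeq promoters of 300 bases were found for 32 of the 44 genes, and 19 of these held a GC box (59.4%, against 45.0% of all 35116 promoters), 10 a CCAAT box (31.2% against 34.6%), 7 a TATA box (21.9% against 11.5%), 2 a SOX core (6.25% against 10.1%) and 1 the E-box (3.12% against 11.1%). These matches describe the letters in each window and say nothing of binding.

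To list the chain genes with RNA in each line, a gene was called expressed when it reached 1 CPM in each of the 3 DMSO libraries. Mel92.1 expressed 13 of the 44 genes and MP41 expressed 20. The 13 genes of Mel92.1 were all expressed in MP41 too, namely COL1A1, COL4A1, COL4A2, COL4A5, COL6A1, COL6A2, COL9A3, COL11A2, COL15A1, COL18A1, COL19A1, COL25A1 and COL27A1. MP41 additionally passed the level for COL5A2, COL5A3, COL6A6, COL9A1, COL11A1, COL16A1 and COL26A1. COL2A1 and COL24A1 reached it only in inhibitor-treated MP41 groups, COL2A1 with UNC0642 and COL24A1 with either inhibitor. Neither gene passed as changed against DMSO there. COL24A1 missed the level with DMSO in MP41 through 1 library at 0.883 CPM, where the group mean was 1.51 CPM. A further 16 genes in Mel92.1 and 17 in MP41 had over 3 counts in at least 1 DMSO library but stayed under 1 CPM in some library, among them COL3A1, COL7A1, COL12A1 and COL13A1 in 1 line or both. Genes with 3 counts or fewer in every DMSO library of both lines were COL4A3, COL6A5, COL8A1, COL8A2, COL20A1, COL21A1 and COL22A1, and COL6A5 had 0 counts in all 18 libraries. At this depth 3 counts, the floor chosen here, correspond to about 0.0728 CPM in Mel92.1, and lower levels rest on very few counts. In such bulk RNA, fewer expressing cells and less RNA per cell cannot be told apart.

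The summed collagen level with DMSO was lower in Mel92.1, at 908 to 992 CPM with a median of 912.5 CPM, than in MP41, at 1007 to 1048 CPM with a median of 1046 CPM, and the libraries of the lines did not overlap. Ribosomal RNA took 6.50% to 12.5% of counts in these Mel92.1 libraries and 3.31% to 5.10% in those of MP41, also without overlap. Its part in this difference and in the line differences below was not tested. The shares of the single chains were set side by side next. In Mel92.1, COL4A2 took 28.6% ± 1.06 (SD, n = 3) of the summed collagen CPM, followed by COL9A3 with 19.9% ± 2.08, COL4A1 with 16.4% ± 2.24, COL6A2 with 12.6% ± 1.07 and COL6A1 with 10.6% ± 0.487. In MP41, COL11A1 alone took 69.3% ± 0.390, and COL9A3 with 8.67% ± 0.399 was the only other gene at 5% or more.

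**Figure D1:**
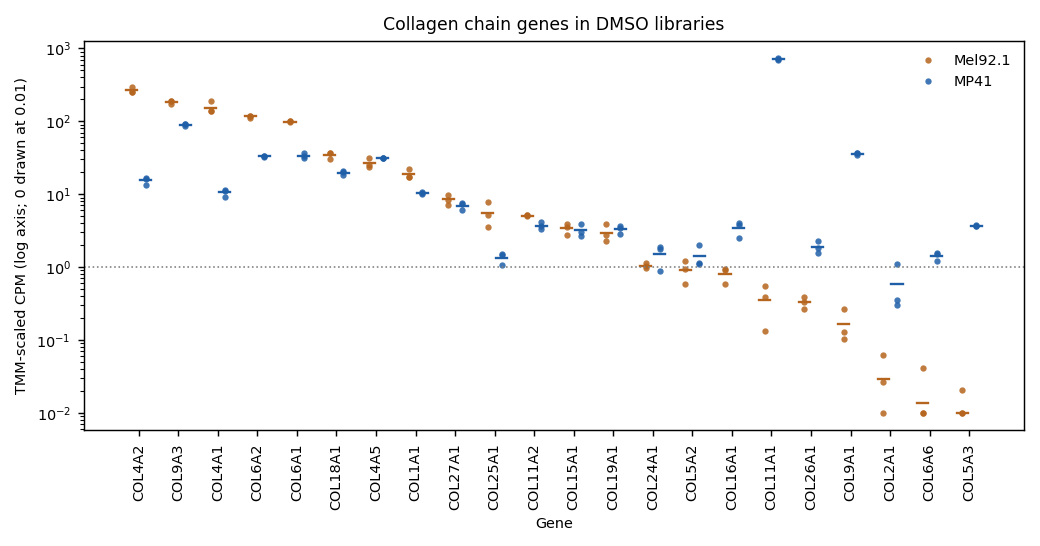
TMM-scaled CPM (log axis) of the 22 collagen chain genes expressed in at least 1 of the 6 groups, in the 3 DMSO libraries of Mel92.1 (brown) and MP41 (blue), ordered by the mean in Mel92.1. Points are libraries, bars are means, the dotted line is 1 CPM and 0 is drawn at 0.01. COL4A1 and COL4A2 were higher in Mel92.1, and COL11A1 and COL9A1 were the genes at over 10 CPM in MP41 that stayed under 1 CPM in Mel92.1.

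The difference between the lines was tested over 33 of the 44 genes that passed the filter on low counts, in 1 fit of the 18 libraries with edgeR's quasi-likelihood test. With DMSO, 20 genes passed an adjusted p of 0.05, 11 higher and 9 lower in Mel92.1, where 69.4% of all genes tested passed. The median log2 difference, Mel92.1 minus MP41, was -0.23 over the 33 genes and -0.02 over all genes. The share of collagen genes that passed, 60.6%, was not above that background, so what follows describes which chains differed and by how much.

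The basement membrane chains COL4A1 and COL4A2, which assemble together into the common collagen IV trimer, were far higher in Mel92.1. COL4A1 was at 188, 137 and 137 CPM in Mel92.1 and at 11.2, 9.29 and 11.4 CPM in MP41. COL4A2 was at 295, 256 and 253 CPM against 16.7, 13.5 and 16.1 CPM. The groups were well apart for both genes, with log2 differences of 3.85 ± 0.179 (SE) for COL4A1 and 4.12 ± 0.101 for COL4A2, or 14.5-fold and 17.4-fold (edgeR adjusted p = 3.45e-12 and 1.12e-15). COL4A5, a chain that joins COL4A3 and COL4A4 or COL4A6 in specialized basement membranes, was at 31.9, 25.4 and 23.6 CPM in Mel92.1 and at 31.7, 31.8 and 31.7 CPM in MP41, and its difference did not pass (log2 difference -0.23 ± 0.125, edgeR adjusted p = 0.106). Its partners were low. COL4A4 and COL4A6 had means of 0.862 and 0.715 CPM in Mel92.1 and of 0.0382 and 0.134 CPM in MP41 and passed as higher in Mel92.1, and COL4A3 did not exceed 3 counts in any DMSO library. COL4A1 and COL4A2 overlap on opposite strands in the gene annotation, and the strand setting used for counting is not given in the sources used here.

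The microfibril chains COL6A1 and COL6A2, which need a further chain such as COL6A3 to build the canonical collagen VI, were both higher in Mel92.1. Mean levels of COL6A1 were 99.2 ± 2.1 (SD, n = 3) and 33.7 ± 2.3 CPM in Mel92.1 and MP41, and those of COL6A2 were 117 ± 4.3 and 33.1 ± 0.69 CPM. The log2 differences were 1.56 ± 0.0755 (SE) and 1.83 ± 0.0783 (edgeR adjusted p = 6.30e-12 and 1.22e-12). COL6A3 had between 0 and 4 counts in the DMSO libraries of Mel92.1 and between 6 and 10 in those of MP41. COL6A6, an alternative partner, was at 1.56, 1.21 and 1.52 CPM in MP41 and had 3 counts or fewer in each DMSO library of Mel92.1, where it was at least 19.6-fold lower against a floor of 3 counts per library.

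Among the cartilage and vitreous chains, COL11A1 and COL9A1 were expressed in MP41 and nearly silent in Mel92.1. COL11A1 was at 725, 695 and 730 CPM in MP41 and at 0.553, 0.133 and 0.386 CPM in Mel92.1. No other collagen gene differed as much, with a log2 difference of -10.90 ± 0.220 (edgeR adjusted p = 1.06e-16). COL9A1 was at 36.3, 35 and 36.6 CPM in MP41 and at 0.102, 0.266 and 0.129 CPM in Mel92.1 (log2 difference -7.78 ± 0.301, edgeR adjusted p = 3.24e-13). COL9A3, which encodes another chain of collagen IX, was instead abundant in both lines, at 173, 191 and 192 CPM in Mel92.1 and at 91.1, 91.2 and 86.3 CPM in MP41. Its log2 difference of 1.05 ± 0.0980 passed (edgeR adjusted p = 3.69e-08) but fell to 0.14 and did not pass in a fit adjusted for GC and transcript length (edgeR adjusted p = 0.0605). COL2A1, the main fibrillar chain of cartilage, stayed under 3 counts or at 3 counts in each DMSO library of Mel92.1 and was at 0.303, 0.348 and 1.09 CPM in MP41.

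Of the remaining fibrillar chains, COL5A3 was at 3.81, 3.6 and 3.63 CPM in MP41 and at 0 to 1 count in Mel92.1, at least 50.5-fold lower against the floor. COL5A1, a partner of COL5A2 and COL5A3 in collagen V, was at a mean of 0.643 CPM in MP41 and at least 8.82-fold lower in Mel92.1. COL5A2 was at 1.21, 0.585 and 0.927 CPM in Mel92.1 and at 1.12, 1.97 and 1.11 CPM in MP41, so the line groups overlapped and its place on either side of 1 CPM rests on a small margin. COL1A1 was higher in Mel92.1, at 22.2, 17 and 17 CPM against 9.97, 10.4 and 10.6 CPM (log2 difference 0.86 ± 0.184, edgeR adjusted p = 0.000471). COL11A2 was at 5.16, 4.95 and 5.10 CPM in Mel92.1 and at 4.2, 3.6 and 3.35 CPM in MP41, a log2 difference of 0.45 ± 0.145 (edgeR adjusted p = 0.0110) that did not pass in the GC- and length-adjusted fit, where it was 0.09, or without MP41 DMSO replicate 3, where it was 0.38. COL27A1, a fibrillar chain with a short helix, was at means of 8.46 and 6.93 CPM and COL24A1 at 1.04 and 1.51 CPM in Mel92.1 and MP41, and neither passed (edgeR adjusted p = 0.104 and 0.215).

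The nonfibrillar chains at lower level included genes that differed between the lines and genes that did not pass. COL18A1, whose C-terminal fragment is endostatin, was at 30.4, 36.7 and 36.9 CPM in Mel92.1 and at 18.6, 20.1 and 20.5 CPM in MP41, and its log2 difference of 0.81 ± 0.119 (edgeR adjusted p = 9.40e-06) fell to 0.26 in the GC- and length-adjusted fit and did not pass (edgeR adjusted p = 0.0609). COL25A1, a transmembrane collagen, was at 7.70, 3.54 and 5.10 CPM in Mel92.1 and at 1.06, 1.44 and 1.52 CPM in MP41 (log2 difference 2.02 ± 0.334, edgeR adjusted p = 3.62e-05). COL15A1, the relative of COL18A1, had means of 3.40 and 3.20 CPM and COL19A1, a FACIT chain, means of 2.98 and 3.31 CPM in Mel92.1 and MP41, and neither difference passed (edgeR adjusted p = 0.749 and 0.676). COL16A1, also a FACIT chain, was at 4, 2.51 and 3.82 CPM in MP41 and at 0.594, 0.931 and 0.901 CPM in Mel92.1. COL26A1 was at 1.82, 2.25 and 1.54 CPM in MP41 and at 0.327, 0.266 and 0.386 CPM in Mel92.1. Both were lower in Mel92.1, by 4.27-fold and 5.68-fold (edgeR adjusted p = 0.000648 and 0.000436). COL14A1 was the last gene that passed as lower in Mel92.1, at means of 0.0743 CPM there and 0.623 CPM in MP41, and its call was lost without Mel92.1 DMSO replicate 1 (edgeR adjusted p = 0.0533).

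Levels per kilobase of the longest coding transcript were then set side by side for chains that share a trimer. In DMSO libraries the level of COL4A2 per kb was 1.79 ± 0.168 (SD, n = 3) times that of COL4A1 in Mel92.1 and 1.47 ± 0.0436 times in MP41, and COL6A2 was 1.45 ± 0.0705 and 1.2 ± 0.0662 times COL6A1. These pairs therefore stayed near each other while both moved between the lines. Other partners were far apart. COL6A3 was at 0.0175% of COL6A1 per kb in Mel92.1 and at 0.222% in MP41. COL9A2 was at 0.261% of COL9A3 in Mel92.1 and at 0.638% in MP41, and COL9A1 at 0.0464% and 21.1%. COL1A2, the partner of COL1A1 in the common collagen I, had 0 counts in each DMSO library of Mel92.1, which allows up to 3 counts in each, and between 3 and 14 counts in MP41, or 2.71% of COL1A1 per kb. COL11A2 was at 0.591% of COL11A1 per kb in MP41, whereas in Mel92.1 its mean of 0.789 CPM per kb was above the 0.0488 CPM per kb of COL11A1.

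**Figure D2:**
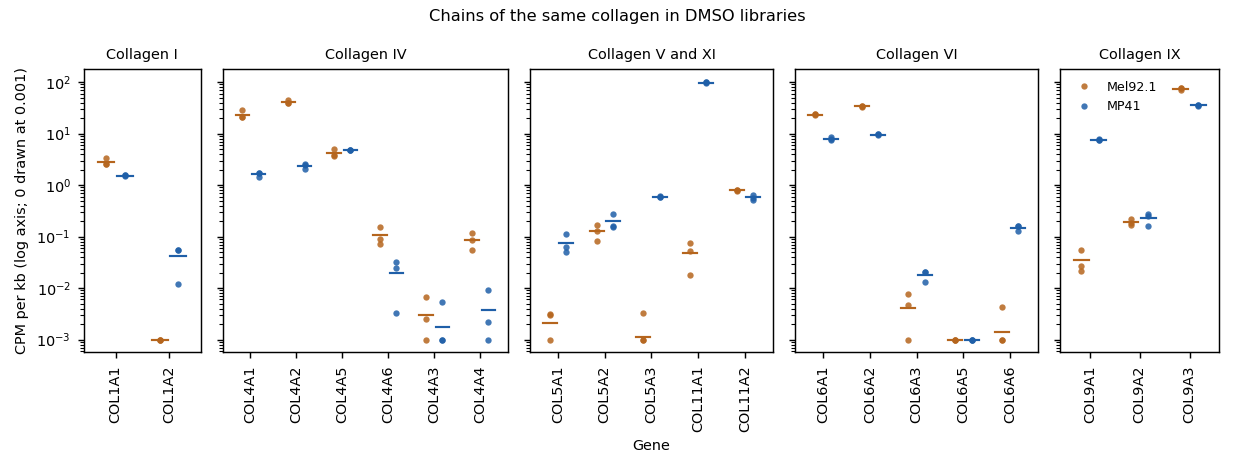
CPM per kb (log axis) of chains of the same collagen in the 3 DMSO libraries of Mel92.1 (brown) and MP41 (blue). Points are libraries, bars are means and 0 is drawn at 0.001. COL4A1 and COL4A2, and COL6A1 and COL6A2, lay close together in each line, while COL1A2, COL6A3 and COL9A2 lay far below COL1A1, COL6A1 and COL9A3.

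Next, each inhibitor was compared with DMSO within Mel92.1, where 25 of the 44 genes passed the filter on low counts. No collagen gene passed with UNC0642 in edgeR's quasi-likelihood test, against 0.688% of all genes tested, while 8 of the 25 genes had an unadjusted p under 0.05, which 9.93% of all genes had. DESeq2 called 1, COL6A2, and 2.64% of all genes. The most abundant chains were at lower mean levels with UNC0642 and the summed collagen level was 757 to 788 CPM, below the 908 to 992 CPM with DMSO. COL6A2 was at 112, 120 and 120 CPM with DMSO and at 95.2, 98.3 and 91.6 CPM with UNC0642 (log2 fold change -0.31 ± 0.0748, edgeR adjusted p = 0.150). COL4A1 was at 106, 110 and 131 CPM with UNC0642 (log2 fold change -0.41 ± 0.140, edgeR adjusted p = 0.360), and COL1A1 was at 8.14, 13.9 and 15.7 CPM (-0.56 ± 0.213, edgeR adjusted p = 0.431). COL6A3, a gene of few counts, had the largest change in size and went the other way. Its mean was 0.418 CPM with UNC0642 and 0.0445 CPM with DMSO (log2 fold change 2.96 ± 1.05, edgeR adjusted p = 0.391). The median log2 fold change over the 25 genes was -0.23, and -0.02 over all genes. The share of ribosomal RNA, 10.1% to 32.8% with UNC0642 and 6.50% to 12.5% with DMSO, moved with these values, as did the summed fibroblast and mural markers, 284 to 304 CPM with UNC0642 and 309 to 346 CPM with DMSO, and the summed melanocyte markers, 23791 to 24412 CPM and 22004 to 22410 CPM. Their part in these values was not tested.

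With A366 in Mel92.1, no collagen gene passed either, where 0.213% of all genes did. An unadjusted p under 0.05 was reached by 3 of the 25 genes in edgeR and by 4.32% of all genes, and DESeq2 called COL6A2 and 1.18% of all genes. COL6A2 was at 85.9, 92.7 and 100.01 CPM, below each DMSO library (log2 fold change -0.34 ± 0.0746, edgeR adjusted p = 0.194), and COL6A1 at 87.8, 86.5 and 79.9 CPM (-0.23 ± 0.0706, edgeR adjusted p = 0.580). COL11A2 was at 6.28, 6.34 and 7.26 CPM, above each DMSO library (0.39 ± 0.152, edgeR adjusted p = 0.945). COL9A3 was at 189, 186 and 219.8 CPM and overlapped the DMSO libraries. The median over the 25 genes was 0.02, against -0.01 over all genes.

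A366 and UNC0642 were also compared with each other in Mel92.1 at the same dose and time. No collagen gene passed in edgeR, where 0.165% of all genes did, with 3 of 25 at an unadjusted p under 0.05 against 7.21% of all genes. DESeq2 called COL9A3 and 1.47% of all genes, and edgeR in the GC- and length-adjusted fit called COL9A3 and 0.626% of all genes.

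**Figure D3:**
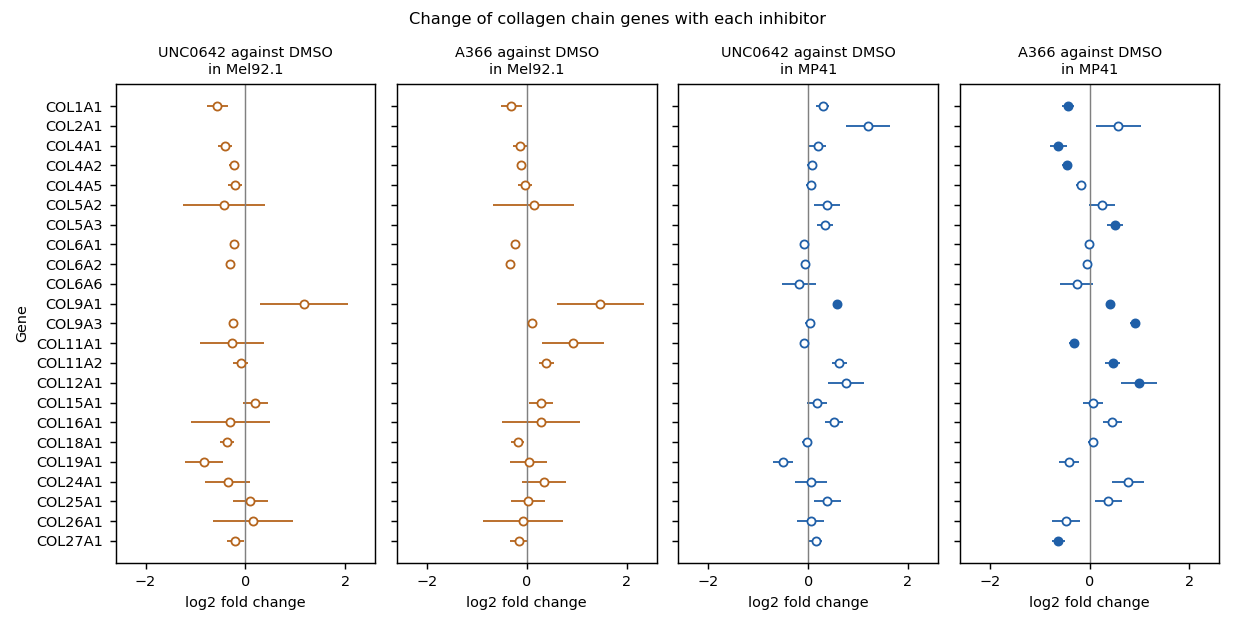
Log2 fold change with its SE in the 4 comparisons with DMSO, for the collagen chain genes expressed in at least 1 group and those that passed in a comparison. COL10A1, with at most 1 count in each A366 library of MP41, is left out, and genes under the filter on low counts have no point. Filled points passed an adjusted p of 0.05: none in Mel92.1, COL9A1 with UNC0642 in MP41, and 10 genes with A366 in MP41.

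In MP41, 32 of the 44 genes passed the filter. With UNC0642, 1 collagen gene changed, where 0.241% of all genes passed. COL9A1 was at 36.3, 35 and 36.6 CPM with DMSO and at 57.0, 53.7 and 51.7 CPM with UNC0642. The groups did not overlap, and the log2 fold change was 0.59 ± 0.0660, or 1.5-fold (edgeR adjusted p = 0.00417). In all, 6 of the 32 genes had an unadjusted p under 0.05, against 8.8% of all genes, and 5 of them did not pass. The next by p was COL11A2, at 5.49, 6.51 and 5.23 CPM against 4.2, 3.6 and 3.35 CPM (log2 fold change 0.62 ± 0.146, edgeR adjusted p = 0.158), and DESeq2 called it together with COL9A1 and 1.2% of all genes. COL2A1, expressed at 1.11, 1.58 and 1.31 CPM with UNC0642, did not pass (1.19 ± 0.444, edgeR adjusted p = 0.443). COL11A1 was at 682, 680.2 and 685 CPM, with a log2 fold change of -0.08 ± 0.0952 (edgeR adjusted p = 0.902), and COL9A3 at 87.8, 103 and 84.6 CPM overlapped DMSO. The median over the 32 genes was 0.24, against 0.00 over all genes. The summed melanocyte markers did not overlap between the groups, at 15607 to 16003 CPM with UNC0642 and 15060 to 15268 CPM with DMSO. The part of this difference in the change was not tested.

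With A366 in MP41, 11 collagen genes changed, 5 up and 6 down. Of all genes tested, 46% passed in this comparison, above the 34.4% of the collagen genes, so the number itself does not set collagens apart. The median log2 fold change was 0.05 over the 32 genes and 0.02 over all genes. The A366 libraries held 5.93% to 11% ribosomal RNA and the DMSO libraries 3.31% to 5.10%, without overlap. The marker sums also differed without overlap: endothelial markers were at 3.98 to 4.41 CPM with A366 and 1.56 to 2.09 CPM with DMSO, fibroblast and mural markers at 84.6 to 91.7 CPM and 78.7 to 81.0 CPM, epithelial markers at 0.0805 to 0.190 CPM and 0.608 to 2.25 CPM, and melanocyte markers at 15706 to 16308 CPM and 15060 to 15268 CPM. The part of these differences in the changes was not tested. The A366 group holds MP41 A366 replicate 1 and 2 of the exchanged libraries, labelled as replicates 2 and 3 of Mel92.1. Without the 4 exchanged libraries, which leaves 1 A366 library assumed to vary like the other groups, 9 collagen genes passed and 8 of the 11 were among them.

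The 5 genes that rose included COL9A3 and COL9A1, chains of collagen IX. COL9A3 was at 91.1, 91.2 and 86.3 CPM with DMSO and at 168, 149 and 199 CPM with A366. All A366 libraries lay above all DMSO libraries, and the log2 fold change was 0.92 ± 0.103, or 1.89-fold (edgeR adjusted p = 0.000189). It was 0.86 without the exchanged libraries and 0.56 in the GC- and length-adjusted fit, and passed in both, COL9A3 having a GC content of 67.4% in its longest coding transcript. COL9A3 overlaps TCFL5 on the opposite strand, and TCFL5 changed by 0.21 ± 0.0809 on the log2 scale (edgeR adjusted p = 0.0468).

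COL9A1 was at 47.3, 48.8 and 48.8 CPM with A366, again above each DMSO library (log2 fold change 0.40 ± 0.0659, edgeR adjusted p = 0.000841). COL11A2 was at 5.40, 5.31 and 4.91 CPM (0.46 ± 0.146, edgeR adjusted p = 0.0215). COL5A3 was at 5.09, 5.37 and 5.51 CPM against 3.81, 3.6 and 3.63 CPM (0.51 ± 0.167, edgeR adjusted p = 0.0258). COL12A1, a FACIT chain under 1 CPM throughout, was at 0.727, 0.704 and 0.861 CPM against 0.368, 0.465 and 0.304 CPM (0.98 ± 0.357, edgeR adjusted p = 0.0397). The calls of COL11A2, COL5A3 and COL12A1 were lost without the exchanged libraries (edgeR adjusted p = 0.0963, 0.221 and 0.347) and when MP41 A366 replicate 1 or MP41 DMSO replicate 3 was left out. COL11A2 and COL5A3 were also lost without MP41 DMSO replicate 2, COL5A3 and COL12A1 without MP41 DMSO replicate 1 or the library labelled Mel92.1 A366 replicate 3, and COL12A1 without the library labelled Mel92.1 A366 replicate 2, with no filter on low counts or with a replicate block.

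Both common collagen IV chains fell. COL4A1 was at 11.2, 9.29 and 11.4 CPM with DMSO and at 7.16, 8.35 and 5.47 CPM with A366 (log2 fold change -0.63 ± 0.170, edgeR adjusted p = 0.01). COL4A2 was at 16.7, 13.5 and 16.1 CPM with DMSO and at 10.9, 11.9 and 11.7 CPM with A366 (-0.45 ± 0.0981, edgeR adjusted p = 0.00336). Neither gene's groups overlapped, and both calls held without the exchanged libraries. The sequence between the start sites of this pair is printed above.

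Among the fibrillar chains, COL27A1 fell from 6.10, 7.25 and 7.45 CPM to 4.46, 5.13 and 4.11 CPM (log2 fold change -0.62 ± 0.135, edgeR adjusted p = 0.00310). COL1A1 fell from 9.97, 10.4 and 10.6 CPM to 7.25, 7.95 and 8.14 CPM (-0.43 ± 0.127, edgeR adjusted p = 0.0153), a call lost without MP41 DMSO replicate 3 or MP41 A366 replicate 1. COL11A1, the most abundant, was at 555, 696 and 503 CPM with A366 against 725, 695 and 730 CPM (-0.32 ± 0.0953, edgeR adjusted p = 0.0174). Here the groups overlapped, since the library labelled Mel92.1 A366 replicate 2 was level with the lowest DMSO library. The change was -0.05 in the GC- and length-adjusted fit and did not pass (edgeR adjusted p = 0.415), and the call was also lost without MP41 DMSO replicate 1, MP41 DMSO replicate 3 or MP41 A366 replicate 1. COL11A1 took 59.0% ± 5.36 (SD, n = 3) of the summed collagen CPM with A366, against 69.3% ± 0.390 with DMSO, and COL9A3 took 17.6% ± 3.72 against 8.67% ± 0.399.

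COL10A1, the network collagen of hypertrophic cartilage, was at 0.216, 0.163 and 0.239 CPM with DMSO and at most 1 count in each A366 library, at least 3.49-fold lower against the floor of 3 counts per library (edgeR adjusted p = 0.00463). It lies opposite NT5DC1, which fell by 0.29 on the log2 scale (± 0.0713, edgeR adjusted p = 0.00661). Levels that did not pass included the collagen VI chains, with COL6A1 at 33.4, 32.8 and 35.3 CPM and COL6A2 at 30.7, 31.2 and 35.5 CPM, both overlapping DMSO (edgeR adjusted p = 0.845 and 0.644). COL4A5 was at 26.4, 32.9 and 26.3 CPM (edgeR adjusted p = 0.151). COL24A1, at 2.63, 3.38 and 1.83 CPM against 1.75, 0.883 and 1.89 CPM, did not pass (log2 fold change 0.77 ± 0.312, edgeR adjusted p = 0.0612).

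**Figure D4:**
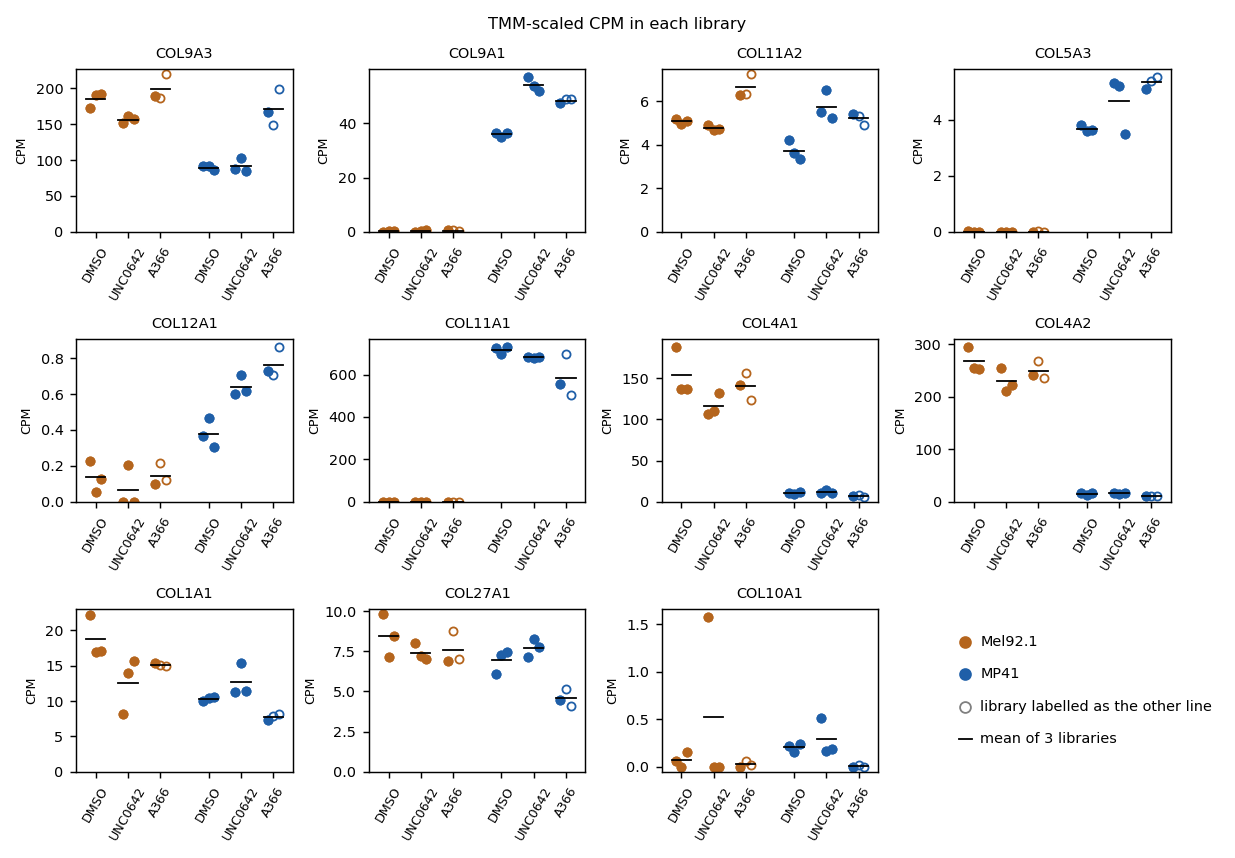
TMM-scaled CPM in each of the 18 libraries for the 11 collagen chain genes that passed with A366 in MP41, for Mel92.1 (brown) and MP41 (blue) with DMSO, UNC0642 and A366. Open points are the 4 libraries labelled as the other line and bars are means of 3 libraries. COL9A3 stands at 149 to 199 CPM with A366 in MP41, above the 84.6 to 103 CPM of the other MP41 libraries, and the collagen IV chains are lower there.

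A366 and UNC0642, given at the same dose for the same time, were compared directly in MP41. With A366, 7 collagen genes differed from UNC0642, 1 higher and 6 lower, where 43.1% of all genes passed. The A366 libraries held 5.93% to 11% ribosomal RNA and the UNC0642 libraries 3.55% to 5.14%, and the sums of endothelial markers (3.98 to 4.41 CPM and 1.81 to 3.07 CPM), fibroblast and mural markers (84.6 to 91.7 CPM and 76.6 to 80.6 CPM) and epithelial markers (0.0805 to 0.190 CPM and 1.69 to 3.16 CPM) did not overlap either. The part of these differences was not tested. COL9A3 was higher with A366 (log2 difference 0.88 ± 0.103, edgeR adjusted p = 0.000145). COL1A1, COL27A1, COL4A1 and COL4A2 were lower, by 1.65-fold, 1.71-fold, 1.76-fold and 1.43-fold (edgeR adjusted p = 0.00112, 0.00108, 0.00271 and 0.00176), and COL10A1 was at least 4.91-fold lower. COL9A1, which passed against DMSO with both compounds, was slightly lower with A366 than with UNC0642 (-0.18 ± 0.0654, edgeR adjusted p = 0.0375), a call lost under 11 of 17 alternatives, with values between -1.78 and -0.07. It was lost without the library labelled Mel92.1 A366 replicate 3, any MP41 DMSO replicate, MP41 UNC0642 replicate 1 or MP41 A366 replicate 1. The COL9A1 call was also lost with a replicate block, in the GC- and length-adjusted fit with or without that block, with no filter on low counts and with the labels as given. All 7 genes passed without the 4 exchanged libraries. As a result of the unequal changes, COL9A1 was at 31.2% ± 3.47 of COL9A3 per kb with UNC0642 and at 15% ± 2.16 with A366, against 21.1% ± 1.06 with DMSO (SD, n = 3). The comparisons of A366 with DMSO and with UNC0642 share the A366 libraries, and those of either inhibitor with DMSO share the DMSO libraries.

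Whether the response differed between the lines was tested as an interaction, with positive values for a higher log2 fold change in Mel92.1 than in MP41. For UNC0642, no collagen gene passed in edgeR, where 0.601% of all genes did, with 6 of 33 at an unadjusted p under 0.05 against 9.79% of all genes, and DESeq2 called COL11A2 and 1.99% of all genes. For A366, 2 passed, where 13.8% of all genes did. The log2 fold change of COL9A3 was 0.10 ± 0.0807 in Mel92.1 and 0.92 ± 0.103 in MP41, a difference of -0.84 ± 0.137 (edgeR adjusted p = 0.00157) that passed under all 26 alternatives, with values between -1.15 and -0.38, the lowest in size in the GC- and length-adjusted fit. That of COL11A1 was 0.93 ± 0.619 in Mel92.1, where no DMSO or A366 library reached 1 CPM, and -0.32 ± 0.0953 in MP41, a difference of 1.17 ± 0.361 (edgeR adjusted p = 0.0405) that was lost under 15 of the 26 alternatives. These were the exclusion of the 4 exchanged libraries, the replicate block, the GC and length adjustment with and without the block, and the exclusion of Mel92.1 DMSO replicate 2 or 3, Mel92.1 A366 replicate 1, any MP41 DMSO replicate, MP41 UNC0642 replicate 1 or 3, MP41 A366 replicate 1, or the library labelled Mel92.1 A366 replicate 3 or MP41 A366 replicate 2, with values between 0.83 and 1.25 over them. For COL9A1, COL4A1, COL4A2 and COL27A1, the difference in response to A366 did not pass (edgeR adjusted p = 0.156, 0.183, 0.110 and 0.187).

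Genes that fold, process, bind and degrade collagen were read with the same tests. In Mel92.1, none of the 21 tested genes of folding and modification, 10 of processing and cross-linking, 7 receptors or 4 of breakdown passed with either inhibitor, and neither did any of the 21, 11, 8 and 6 tested with UNC0642 in MP41. With A366 in MP41, 5 of 21 folding and modification genes rose and 7 fell, 2 of 11 processing and cross-linking genes rose and 3 fell, 4 of 8 receptors fell, and 1 of 6 breakdown genes rose, where 46% of all genes passed. The median log2 fold changes of these lists were 0.05, -0.17, -0.34 and 0.12, against 0.02 over all genes. Ranking was limited to genes past the threshold with a mean of at least 1 CPM in 1 group and no overlap between groups. The largest rises were in TIMP1, an inhibitor of collagenases (69.0 ± 3.00 CPM with DMSO and 100.4 ± 8.70 CPM with A366, SD, n = 3), P3H4, a component of the lysine and proline hydroxylation complex (35.9 ± 0.616 and 50.3 ± 4.65 CPM), and PPIB, a prolyl isomerase of the endoplasmic reticulum (315 ± 3.24 and 440.1 ± 57.7 CPM), with edgeR adjusted p of 0.000665, 0.000922 and 0.00102. The largest falls were in ADAMTS14 and ADAMTS3, which remove the N-terminal propeptide of procollagens (1.47 ± 0.174 to 0.539 ± 0.00360 CPM, and 9.01 ± 0.05 to 5.42 ± 1.02 CPM), and ITGA2, a subunit of a collagen-binding integrin (21.9 ± 2.02 to 12.5 ± 2.58 CPM), with edgeR adjusted p of 0.00145, 0.00230 and 0.000703.

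Against UNC0642 in MP41, A366 gave 6 higher and 7 lower folding and modification genes, 2 and 3 of processing, 0 and 3 receptors and 3 and 0 of breakdown, where 43.1% of all genes passed. P3H2, a prolyl 3-hydroxylase of basement membrane collagens, was at 1.95 ± 0.295 CPM with A366 and 0.598 ± 0.206 CPM with UNC0642, PCOLCE2, an enhancer of procollagen processing, at 12.9 ± 0.974 and 8.63 ± 0.472 CPM, and BMP1, the C-proteinase of procollagens, at 13.8 ± 1.46 and 9.70 ± 1.15 CPM (edgeR adjusted p = 0.00150, 0.00158 and 0.00806). LOXL4, a lysyl oxidase of cross-linking, was lower with A366, at 0.151 ± 0.0381 against 1.00 ± 0.496 CPM, as were ADAMTS14 and ITGA2, by 1.99-fold and 1.82-fold (edgeR adjusted p = 0.00255, 0.0119 and 0.000566). Between the lines with DMSO, 19 of 21 folding and modification genes differed, 11 higher and 8 lower in Mel92.1, as did 10 of 12 processing genes, all 8 receptors and 4 of 7 breakdown genes, where 69.4% of all genes passed.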

How the data were processed

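RNA-seq of 18 libraries was used. The authors deposited a table of RSEM expected counts by gene symbol without library-size normalization, and these values were rounded to whole numbers here. The submitters' processing notes name Bowtie2 2.1.0, RSEM 1.2.15 and hg38. The study's methods differ, naming TopHat and Cufflinks with a mouse reference genome, and describe mRNA purified with oligo-dT beads. The same methods describe strand-specific libraries, and the strand setting of the counting is not given in the sources used here. Groups came from the labels, except that the 4 libraries labelled A366 replicates 2 and 3 were placed in the other line, with the labels as an alternative. No column of the table was left out.

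Inhibitor comparisons used the 9 libraries of a line, and line differences and interactions all 18, in edgeR 4.0.16 (R 4.3.3) with filterByExpr, TMM factors and glmQLFTest, with Benjamini-Hochberg adjustment over all genes and a threshold of 0.05. An SE is the log2 fold change divided by the root of F. Gene spans and transcript lengths came from GENCODE release 29 (GRCh38) and promoters from RefSeq (GRCh38.p14). Total counts ran from 23601156 to 62941462, and floors of 3 counts cover counting error only. No pair of replicates agreed within sampling noise.

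The collagen genes, the lists of related genes and the marker lists were chosen with earlier results of these data known. Every collagen gene expressed in a group or past the threshold with an inhibitor was named, with up to 3 rises and 3 falls per comparison for the related lists (past the threshold, a mean of 1 CPM in 1 group and no overlap). COL1A2, COL3A1, COL4A3, COL4A4, COL4A6, COL5A1, COL6A3, COL7A1, COL9A2, COL13A1 and COL14A1 were named outside this rule after their values were seen. Alternatives were DESeq2 1.42.0, other scaling factors, filters, a replicate block, an adjustment for GC and length through offsets, the labels as given, the exchanged libraries left out, and each library left out in turn. The fits were tested on simulated data. Plots used Python 3.11.15 and matplotlib 3.10.9.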

Additional observations from a re-analysis of the deposited data

Results flagged for a closer look

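COL9A3 differed between the lines in its response to A366. The interaction, positive where the log2 fold change is higher in Mel92.1 than in MP41, was -0.84 ± 0.137 (SE, 3 libraries per group, edgeR adjusted p = 0.00157), with the 3 A366 libraries of MP41 all above its 3 DMSO libraries and overlapping groups in Mel92.1. COL11A1 was picked out by the same test, with an interaction of 1.17 ± 0.361 (edgeR adjusted p = 0.0405), and its levels in Mel92.1 were under 1 CPM in every library.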

How the results depend on the processing

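Across the alternatives, 818 of the values for single genes kept their direction and side of the threshold, 68 lost significance and 9 reversed. Of the counts, 164 stayed equal, which includes those at 0 in both fits, or within 1.5 times. A further 21 moved by more, 6 rose from 0 and 1 fell to 0. All reversals came from taking the labels as given, which mixes the lines: for A366 against DMSO in MP41, the log2 fold changes were then -0.090 for COL12A1, 0.29 for COL1A1, 3.20 for COL4A1, 3.51 for COL4A2, -1.13 for COL5A3 and -1.19 for COL9A1, and against UNC0642 they were 0.0017 for COL1A1, 3.01 for COL4A1 and 3.44 for COL4A2. With the labels as given, 0 collagen genes passed for UNC0642 in MP41, 7 for A366 against DMSO in MP41 (4 shared with the 11) and 14 for the interaction with A366. Of the 4 shared genes, COL4A1 and COL4A2 passed in the reverse direction. DESeq2 called 1 gene each for UNC0642 and A366 against DMSO and for A366 against UNC0642 in Mel92.1, 2 for UNC0642 in MP41, 1 for the interaction with UNC0642 and 5 for that with A366. The GC- and length-adjusted fit gave 1 gene for A366 against UNC0642 in Mel92.1 and 1 for the interaction with A366, and leaving out the 4 exchanged libraries gave 1 for the latter. The cause was not tested. Leaving out each library in turn gave 7 to 12 genes for A366 against DMSO in MP41 (7 without MP41 A366 replicate 1), 6 to 9 for A366 against UNC0642 there, 0 to 1 for the interaction with UNC0642 (1 without Mel92.1 UNC0642 replicate 2) and 1 to 5 for that with A366 (5 without Mel92.1 DMSO replicate 1). The count of expressed genes was 13 to 14 in Mel92.1 and 20 to 21 in MP41 without a library, and 17 and 21 at 0.5 CPM, or 13 and 16 at 2 CPM.

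Replicate numbers did not pair the libraries: the deviations of same-numbered libraries correlated between -0.383 and 0.485, with 2 of 18 correlations over 0.1. With the replicate block, the interaction with A366 kept 1 gene, without or with the GC and length adjustment, and A366 against DMSO in MP41 gave 11. Genes at 3 counts or fewer in each library could not be compared at this depth.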

Other observations

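Mel92.1 UNC0642 replicate 1, the library with the highest share of ribosomal RNA, stood apart for several collagen genes of low level, which were picked after their values were seen. COL10A1 was at 1.58 CPM there and at most 0.155 CPM in the other 8 libraries of Mel92.1. COL14A1 was at 0.972 CPM against at most 0.183 CPM, and COL6A3 at 0.850 CPM against at most 0.300 CPM. In the same library COL5A2, COL7A1, COL9A1, COL9A2, COL16A1 and COL26A1 were at 0, where each of the other 8 libraries held counts. COL16A1 ran from 0.594 to 1.18 CPM in those 8 libraries and COL5A2 from 0.585 to 1.29 CPM. In edgeR, no collagen gene passed for UNC0642 against DMSO or A366 against UNC0642 in Mel92.1, with or without this library. COL10A1 and COL14A1 were under the filter on low counts in the fit of all Mel92.1 libraries and could not pass there.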
